A study of Mus musculus with 60 samples.

Results

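Choroid plexus epithelium genes are 10 transcripts, Ttr, Kl, Folr1, Clic6, Aqp1, Kcne2, Kcnj13, Otx2, Cldn2 and Slc4a5, that were read in RNA-seq libraries of mouse hippocampus. They were chosen by name, as known genes of that epithelium, from 47643 symbols in the table. All 10 passed the filter on low values, a TPM (an expression level corrected for gene length and for the library's total) of at least 1 in at least 4 of 60 libraries, which 15608 genes passed. Every group came from the hippocampus of female mice given an age of 2 months, and the groups differed in what was injected: CAC mice got melanoma cells labelled cachectic, NCAC mice got melanoma cells labelled non-cachectic, and Con mice were mock injected. Each was taken 2, 4, 6 and 8 wk after the injection. The CAC groups held 4, 5, 5 and 7 libraries at these times, the NCAC groups 5, 5, 4 and 5, and each Con group 5. The sample labels give the strain as C57BL6/J and the design text as NCI Ath/nude, so the strain of the host cannot be told from them. The protocol text also names LLC cells, another tumour line, which match no group here. The labels call the libraries biological replicates without naming mice, so each p-value speaks of the spread among these libraries, which may in part be technical.

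The choroid plexus is a frond of epithelium over leaky capillaries that hangs in the ventricles of the brain and makes cerebrospinal fluid. It lies along the edge of the hippocampus, in the lateral ventricle, so a hippocampal dissection can carry more or less of it. Its epithelial cells pump ions and water into the ventricle, seal the barrier between blood and fluid, and secrete carrier proteins. In whole tissue, fewer cells of a type and less RNA per cell cannot be told apart, and that holds for every value below.

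The members fall into 4 roles. Ttr (transthyretin, a carrier of thyroid hormone and of retinol-binding protein) and Kl (klotho, a co-receptor for fibroblast growth factor 23 that is also shed) are made for the fluid or the surface, and Folr1 (folate receptor alpha) moves folate into it. Aqp1 (a water channel), Slc4a5 (a sodium bicarbonate cotransporter), Kcnj13 (the inward rectifier potassium channel Kir7.1), Kcne2 (a potassium channel beta subunit) and Clic6 (a chloride intracellular channel protein) serve ion and water transport. Cldn2 (claudin 2) forms paracellular pores for cations in tight junctions. Otx2 is a homeodomain transcription factor that choroid plexus development needs. Kcne2 (chr16:92292389-92298129) and Clic6 (chr16:92485736-92541243) lie on the same strand of GRCm38, the build that mm10 names, 187.6 kilobases apart in GENCODE M21. The other members lie on 7 other chromosomes, Aqp1 and Slc4a5 both on chromosome 6.

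Upstream sequences are shown for Kcnj13 and Cldn2, since both genes tracked the other members closely and both carry a TATAAA in this window. Each is the 250 bases before a RefSeq transcript start on GRCm38.p6, written 5′ to 3′ on the gene's strand. Capitals mark TATAAA and, in Kcnj13, CCAAT or its reverse complement ATTGG. Kcnj13 is at chr1:87394730-87394979 on the minus strand and Cldn2 at chrX:139800558-139800807 on the plus strand.
Kcnj13: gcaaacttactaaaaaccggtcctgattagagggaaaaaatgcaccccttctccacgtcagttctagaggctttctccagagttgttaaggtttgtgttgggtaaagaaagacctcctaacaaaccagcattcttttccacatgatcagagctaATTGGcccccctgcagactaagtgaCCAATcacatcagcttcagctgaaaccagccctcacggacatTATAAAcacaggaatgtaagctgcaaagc
Cldn2: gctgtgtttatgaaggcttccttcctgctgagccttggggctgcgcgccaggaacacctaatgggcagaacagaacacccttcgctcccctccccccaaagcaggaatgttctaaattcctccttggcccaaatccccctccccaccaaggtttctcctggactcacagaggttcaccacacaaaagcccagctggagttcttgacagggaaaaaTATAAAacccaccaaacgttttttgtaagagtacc
Ttr was left out of the count of member starts, and the RefSeq table matched 7 of the other members with 11 starts. On either strand, TATAAA was found before at least 1 start of 4 of these 7 genes (Cldn2, Kcnj13, Otx2 and Slc4a5), 4 of 11 starts, against 12.4% of 32851 upstream windows of the same length. CCAAT was found before 2 of the 11 starts (33.8% of all windows), and TAATCC, the core that OTX proteins bind, before 1, an inner start of Otx2 itself (6.25% of all windows). The 3 motifs cannot overlap as letters in these 2 windows, and a match is only a run of letters.

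The members spanned a wide range between libraries that carry the same tissue label. Ttr ranged from 19.7 to 10621 TPM with a median of 2621, a 537.9-fold range. Slc4a5 ranged from 0.0852 to 26 TPM (median 6.65, 305.6-fold), and Folr1 from 0.436 to 72.4 TPM (median 15.6, 166.1-fold). Kcnj13 had a median of 23.1 TPM and a 128.6-fold range, Aqp1 10.4 TPM and 113.5-fold, and Cldn2 10.1 TPM and 90.9-fold. The ranges were narrower for Otx2 (median 6.87 TPM, 20.5-fold), Clic6 (24.4 TPM, 14.5-fold) and Kl (22.5 TPM, 9.61-fold). Kcne2, the lowest member, had a median of 2.92 TPM and a maximum of 41.4, and it had 0 reads in 2 libraries (CAC 2 wk replicate 1 and CAC 8 wk replicate 6). Whole reads could be recovered from the TPM values, at 32386543 to 42044489 reads per library, and behind these medians stood 33653 reads for Ttr, 2197 for Kl, 996 for Clic6 and 55 for Kcne2. Of the variance of each member, 72.2% (Kcne2) to 79.9% (Clic6 and Slc4a5) lay between libraries of the same group. The rest is not all a group effect, since means of so few libraries also differ through the spread among libraries.

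To place each library on one scale, log2(TPM + 0.5) was averaged over the 10 members. The order of the 12 groups by the median of this mean ran from CAC at 6 wk (5.32), Con at 2 wk (4.88), Con at 8 wk (4.83), CAC at 2 wk and Con at 4 wk (4.79 each), NCAC at 6 wk (4.74), CAC at 8 wk (4.53), NCAC at 2 wk (4.39), NCAC at 8 wk (4.01) and NCAC at 4 wk (3.50) down to Con at 6 wk (2.61) and CAC at 4 wk (2.07). Neighbours in that order overlapped throughout, since 10 of the 12 groups held at least 1 library under 3 on this scale. Con at 2 wk (4.25 to 5.26) and Con at 4 wk (4.28 to 5.04) held none. Con at 6 wk ran from 1.64 to 4.60, and CAC at 4 wk from 1.58 to 3.84, the only group with no library above 4.

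**Figure D1:**
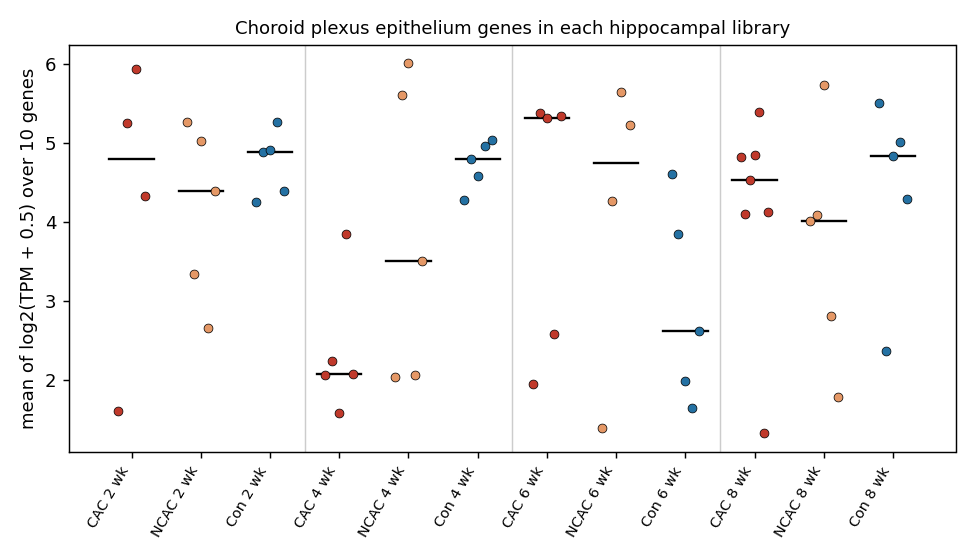
Each point is 1 hippocampal library, placed by the mean of log2(TPM + 0.5) over the 10 choroid plexus epithelium genes (y axis) in its group (x axis), and bars are group medians. Con at 2 wk and 4 wk is narrow, CAC at 4 wk is the lowest group by its median (2.07), and most other groups run from under 3 to over 5.

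**Figure D2:**
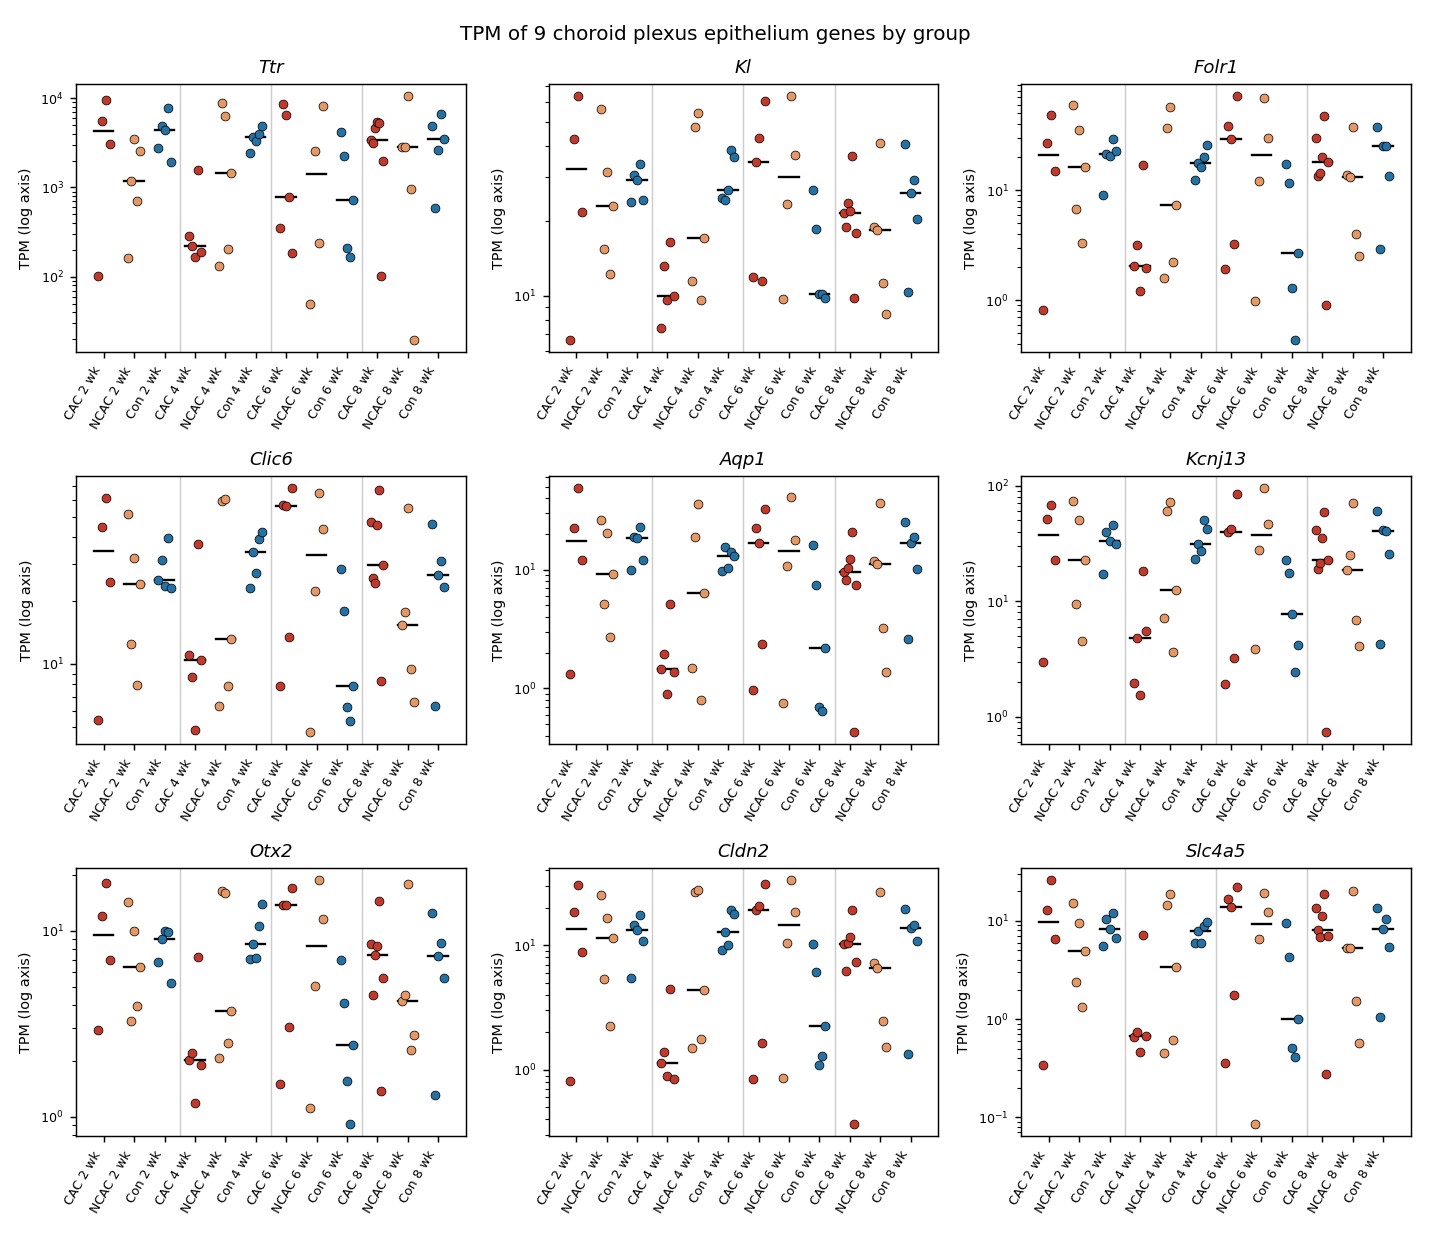
TPM on a log axis for 9 of the members (Kcne2, at 0 in 2 libraries, is left out), with 1 point per library and bars at group medians; CAC is red, NCAC orange and Con blue. The panels share 1 pattern, with CAC at 4 wk and Con at 6 wk low, except for single NCAC and CAC libraries in which only Ttr is low.

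The members rose and fell together from library to library. Over 60 libraries, Pearson's r of the 36 pairs without Ttr was 0.83 to 0.98 (median 0.94), and Spearman's rho was 0.79 to 0.97 (median 0.95). With the group means taken out, r was 0.84 to 0.99, and without the 2 libraries farthest from the median it was 0.81 to 0.98. Every one of the 45 pairs had a permutation p of 1e-05 for r and for rho, the smallest that 100000 permutations can give, and the same value after Benjamini-Hochberg adjustment over the 45. These pairs share each library's total, RNA and dissection, so the values describe covariation. Each member other than Ttr was also set against the mean of the rest of them, with Ttr left out of that mean. Cldn2 followed it most closely (r = 0.99), then Folr1, Aqp1 and Slc4a5 (0.98 each), and Kcne2 least (0.88).

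The members did not change by equal steps. Against the mean of the other members without Ttr, on the log2 scale, the slope was 1.26 for Folr1, 1.18 for Kcnj13, 1.16 for Slc4a5, 1.15 for Aqp1 and 1.12 for Cldn2. It was 0.57 for Kl, 0.73 for Otx2 and 0.78 for Clic6. Kl still had 6.64 TPM and Clic6 4.75 TPM in their lowest libraries, where Folr1, Aqp1, Cldn2 and Slc4a5 had lowest values under 1 TPM. The ratio of Clic6 to Aqp1 therefore differed with the level of all members, from 1.26 in Con 2 wk replicate 3 to 19.3 in CAC 8 wk replicate 6, the library with the lowest mean over the members.

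Ttr stood apart from the other members in 4 libraries. NCAC 2 wk replicate 1 had 160.8 TPM of Ttr, CAC 6 wk replicate 5 had 185.7 TPM and NCAC 6 wk replicate 3 had 241.0 TPM. In those 3 libraries the other members were near the top of their range: Folr1 was 60.1, 72.4 and 68.5 TPM and Kcnj13 was 74.1, 83.7 and 95.2 TPM. The fourth, NCAC 8 wk replicate 5, had the lowest Ttr of all (19.7 TPM, 270 reads) beside 2.52 TPM of Folr1 and 4.07 TPM of Kcnj13. On the line of Ttr against the mean of the other 9 over all 60 libraries, these 4 lay 5.34, 5.22, 5.19 and 3.99 log2 units under it, 40.5-, 37.3-, 36.6- and 15.9-fold, and the next library lay 1.98 under it. The 4 were set apart by these values and belong to 3 NCAC groups and 1 CAC group, so nothing was tested between them and the others. Without them, r of Ttr with the mean of the other 9 was 0.96 in place of 0.75, and r of its 9 pairs was 0.85 to 0.97 in place of 0.64 to 0.79.

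Genes next to Ttr on chromosome 18 kept their levels in these 4 libraries. Dsg2 was 2.4, 3.13, 2.18 and 1.64 TPM (0.903 to 3.15 over all libraries), Trappc8 was 48.7, 51.9, 47.5 and 43.8 TPM (39.3 to 56.5), and B4galt6 was 119.2, 137.0, 116.9 and 104.3 TPM (104.3 to 154.2), the last its lowest value. Over all tested genes, a search chosen after these values were seen found Rps26-ps1 and Gm6563 also low in all 4, but each was under 1 TPM in 41 of 60 libraries.

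**Figure D3:**
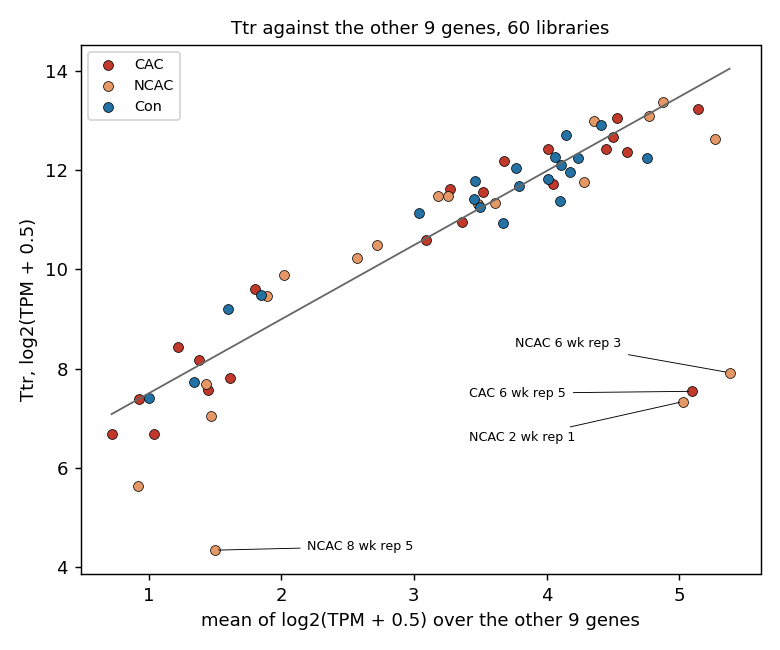
Ttr in log2(TPM + 0.5) on the y axis against the mean of the other 9 members on the x axis, 1 point per library, with the least-squares line of the 56 libraries outside the 4 named. NCAC 2 wk replicate 1, CAC 6 wk replicate 5 and NCAC 6 wk replicate 3 lie far under the line at the right, and NCAC 8 wk replicate 5 under it at the left.

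The genes most like the members were found by the within-group correlation with the mean over the 10. Of 15598 tested genes that are no members, 60 had r of at least 0.9, 622 at least 0.5, and 16 at most -0.5. The closest were Tmem72 (0.99, a membrane protein), Mfrp (0.98, a frizzled-related membrane protein), F5 (0.98, coagulation factor V), 1500015O10Rik (0.98) and Sostdc1 (0.98, a secreted antagonist of BMP and Wnt signals). They were followed by Enpp2 (0.97, autotaxin), Col8a1, Steap1, Slc2a12, Trpv4 and Krt18 (0.97 each), and by Tmprss11a, Prlr, Wfdc2 and Col4a3 (0.96 each). Enpp2 was the most abundant of these, from 81.5 to 2771 TPM.

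The tested gene least like the members, C1qtnf5 (r = -0.77, 0.133 to 12.5 TPM), lies inside the second most alike. Mfrp (0.529 to 50 TPM) covers chr9:44101729-44109187, and C1qtnf5 covers chr9:44107245-44109187 on the same strand of GRCm38, with the same end. How the authors' counting shared reads between these overlapping genes is not given, so both values are uncertain.

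Genes of other roles in the same epithelium tracked the members in part. Of the other choroid plexus genes in the lists used here, 7 of 13 secreted and carrier genes, 8 of 20 transport genes, 6 of 13 junction and surface genes and 2 of 6 transcription factors had r of at least 0.9. Those that did not include genes that neurons or glia also express: Atp1b1, a sodium pump subunit, had r = -0.17 at 1515 to 2092 TPM, and Trf, transferrin of oligodendrocytes, had r = -0.04. Ependymal genes, from the ciliated cells that line the ventricle beside the plexus, had a median r of 0.69 (17 tested, 0.23 to 0.93), with Mia at 0.76 and Foxj1 at 0.75. Among 9 stromal and fenestrated vessel genes r ran from 0.03 to 0.80, with Plvap, the fenestral diaphragm protein, at 0.39. The highest were Esm1 (0.80, 0 to 1.67 TPM) and Dpep1 (0.74, 0.0894 to 1.72 TPM), both of low level. The median r of this list was 0.07. It was -0.10 for 11 meningeal fibroblast genes, -0.06 for 12 thalamus and habenula genes, -0.16 for 11 striatum genes, -0.15 for 6 blood genes, -0.12 for 11 hippocampal neuron genes and -0.05 for 8 vascular endothelium genes. Over 60 libraries these lists had summed levels of 1679 to 2574 TPM (hippocampal neurons), 46.1 to 170.0 TPM (ependymal) and 48.1 to 10933 TPM (the 10 members).

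CAC and Con libraries lay farthest apart at 4 wk, where all 10 members had lower means in CAC. Ttr was 287.9, 223.1, 167.3, 1554 and 188.5 TPM in CAC and 2450, 3644, 3279, 3977 and 4847 TPM in Con. The groups did not overlap, and CAC replicate 4 was well above the other 4 CAC libraries. The difference was -3.49 ± 1.34 log2 (SE; n = 5 and 5; limma adjusted p = 0.152), and a two-sided exact permutation test gave p = 0.00794, the smallest that 5 against 5 allows (0.0952 adjusted over 12 comparisons). Kl was 7.4, 13.2, 9.6, 16.5 and 10 TPM in CAC and 24.7, 24.3, 26.6, 38.7 and 36.2 TPM in Con, again with no overlap (-1.39 ± 0.50, limma adjusted p = 0.124). Cldn2 was 1.14, 1.39, 0.891, 4.48 and 0.843 TPM in CAC and 9.2, 12.8, 9.99, 19.1 and 18 TPM in Con (-2.81 ± 0.89, limma adjusted p = 0.0876).

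Kcne2 had the smallest p of the members at 4 wk. It was 0.574, 0.114, 0.0559, 0.173 and 0.227 TPM in CAC, which is 11, 2, 1, 3 and 4 reads. In Con it was 2.95, 8.9, 9.01, 3.96 and 4.07 TPM, or 52 to 161 reads, and the fitted difference was -3.02 ± 0.90 (limma adjusted p = 0.0714). CAC replicate 4 was low for Kcne2 as well, although its Folr1 (17 TPM) and Clic6 (37.4 TPM) were within the range of Con at 4 wk (12.3 to 26 TPM and 22.9 to 42.6 TPM). The other members differed by -2.77 ± 0.97 (Kcnj13), -2.47 ± 0.92 (Aqp1), -2.32 ± 1.02 (Folr1), -2.28 ± 0.95 (Slc4a5), -1.72 ± 0.63 (Otx2) and -1.47 ± 0.68 (Clic6).

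By limma over all tested genes at an adjusted p of 0.05, 0 of the 10 members passed in CAC against Con at 4 wk, where 125 genes (0.801%) did. The unadjusted p was under 0.05 for 10 of 10 members and for 2789 of the 15608 tested genes. Since the members rose and fell together, these are not 10 separate results. In 6 of the 10 (Ttr, Kl, Aqp1, Kcne2, Kcnj13 and Cldn2), every CAC library was below every Con library, which held for 1.76% of all tested genes. The median difference was -2.39 over the members and 0.00 over all genes. The count differed between fits: 5 members (Ttr, Kl, Aqp1, Kcne2 and Cldn2) passed when only the 2 groups were fitted, where 37 of all genes did (0.237%), and 4 (Kcne2, Kcnj13, Otx2 and Cldn2) with library weights, where 793 did (5.08%). In the other choroid plexus lists the median difference was -1.15 (13 secreted and carrier genes), -0.41 (20 transport genes), -0.53 (13 junction and surface genes) and -0.44 (6 transcription factors), with 0 past the threshold in each, and it was 0.04 for 11 hippocampal neuron genes. Ependymal genes had summed levels of 61.4 to 104.2 TPM (median 65.7) in CAC and 86.1 to 116.7 TPM (median 104.6) in Con at this time, with 0 of 17 past the threshold. Striatum genes summed to 121.0 to 2156 TPM (median 158.2) in CAC and 122.9 to 2109 TPM (median 132.8) in Con, and blood genes to 93.8 to 2794 TPM (median 1145) and 565.5 to 919.0 TPM (median 669.0). The part of these cells in the result was not tested. NCAC at 4 wk was split, with Ttr at 132.1, 8771, 6361, 205.4 and 1445 TPM, and its members differed from Con by a median of -0.91 and CAC from NCAC by -1.46, with 0 past the threshold in either.

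At 6 wk the order was the opposite. All 10 members had higher means in CAC than in Con, by a median of 1.25 against 0.02 over all genes. Con held 3 low libraries of 5: Ttr was 4219, 2248, 211.4, 168.2 and 714.5 TPM, and Clic6 was 28.2, 17.8, 6.21, 5.35 and 7.85 TPM. CAC held 2 low libraries of 5, with Clic6 at 7.89, 57.1, 56.5, 13.4 and 68.7 TPM, so the groups overlapped. The largest difference was 1.88 ± 1.02 for Folr1, the smallest 0.55 ± 0.90 for Kcne2, and Clic6 had the lowest limma adjusted p (0.382, difference 1.45 ± 0.68). The members passed in 0 cases, against 39 of all genes (0.250%). The unadjusted p was under 0.05 for 2 of 10 members and for 1881 of the 15608 tested genes. The change of the CAC and Con difference from 4 to 6 wk, a comparison added after the data were seen, was 2.30 (Kl) to 4.20 (Folr1) log2, with 10 of 10 at an unadjusted p under 0.05 and 0 past the threshold, the lowest limma adjusted p being 0.269 (Otx2). In that comparison 0 of all genes (0%) passed, and 1560 had an unadjusted p under 0.05.

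**Figure D4:**
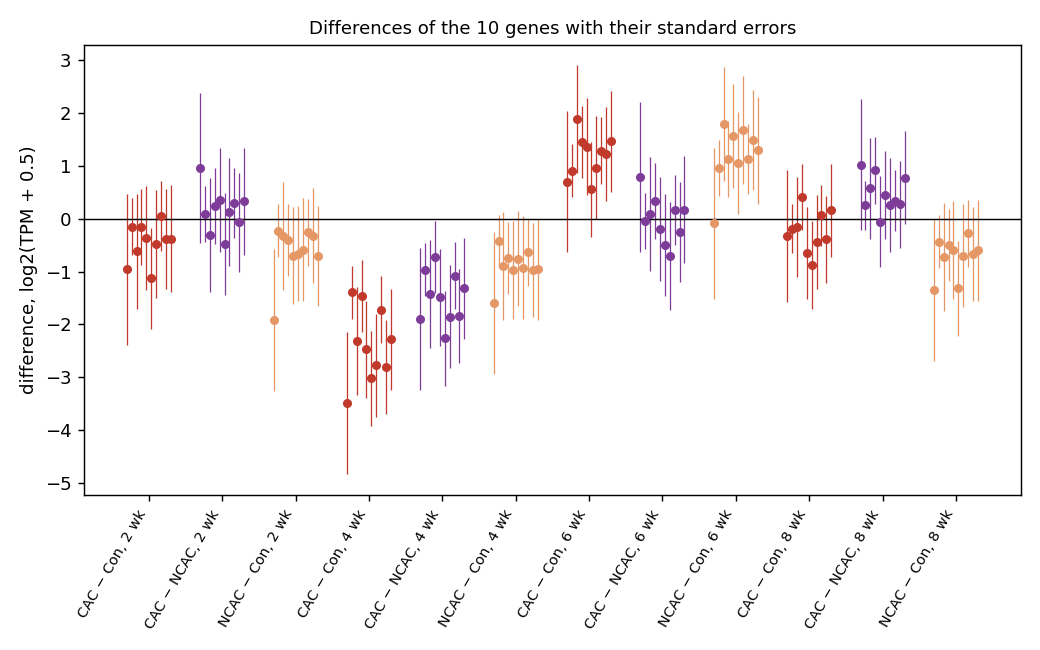
Differences of group means in log2(TPM + 0.5) for the 10 members (points, in the order Ttr, Kl, Folr1, Clic6, Aqp1, Kcne2, Kcnj13, Otx2, Cldn2, Slc4a5 from left to right) with standard errors, for the 12 comparisons at single times. All 10 are below 0 for CAC against Con at 4 wk (median -2.39) and above 0 at 6 wk (median 1.25), and every member's value at these times moves with the rest.

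In the remaining comparisons 0 members passed as well. In CAC against Con, the median member difference was -0.38 at 2 wk (577 of all genes passed, 3.70%), -0.26 at 8 wk (2256, 14.5%) and -0.42 over the mean of the 4 times (3095, 19.8%). Kcne2 had the lowest limma adjusted p over the 4 times (0.0686, difference -1.12 ± 0.45). In CAC against NCAC, the medians were 0.18 at 2 wk (0 genes, 0%), -1.46 at 4 wk (2 genes, 0.0128%), 0.03 at 6 wk (276, 1.77%), 0.39 at 8 wk (285, 1.83%) and -0.22 over the 4 times (2446, 15.7%). In NCAC against Con, they were -0.50, -0.91, 1.20 and -0.63 at 2, 4, 6 and 8 wk and -0.14 over the 4 times, with 0 of all genes (0%) in each. The change of the CAC and Con difference from 2 to 8 wk had a median of 0.15 over the members, and 1 of all genes passed (0.00641%). The sign of the median was not stable in 6 of these comparisons: in CAC against Con it was 0.49 without CAC 2 wk replicate 1 and 0.29 at 8 wk without CAC 8 wk replicate 6. Limma's voom on the recovered reads also called 0 members in each comparison. Pooled over the groups, the members varied between libraries of a group by an SD of 0.82 (Kl) to 2.2 (Ttr) log2 units. Comparisons that share the Con libraries of a time are not independent.

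Because the members shared a common level in each library, a second fit asked what differed at equal values of that level. It was added after the data were seen. Its covariate was the mean log2 level of 25 other choroid plexus genes in each library, none of them a member, chosen for a within-group r of at least 0.9 with the members other than Ttr in these same libraries. Over the mean of the 4 times, Clic6 was higher in CAC than in Con by 0.27 ± 0.07 log2 (limma adjusted p = 0.00316) and higher than in NCAC by 0.36 ± 0.07 (adjusted p = 0.000358). Kcne2 (-0.87 ± 0.22, adjusted p = 0.00441), Kcnj13 (-0.39 ± 0.10, 0.00566) and Cldn2 (-0.32 ± 0.08, 0.00314) were lower in CAC than in Con. At single times against Con, the Clic6 difference was 0.02, 0.20, 0.37 and 0.48 at 2, 4, 6 and 8 wk, and it passed only at 8 wk. Its change from 2 to 8 wk did not pass in this fit (0.46 ± 0.18, limma adjusted p = 0.355). Kcne2, Kcnj13 and Cldn2 passed against Con at no single time. In this fit the median member difference against Con was -0.21 at 4 wk and -0.07 at 6 wk, with 0 members past the threshold at either time. The covariate was chosen to follow the members, so small medians follow from that choice. Against NCAC, Kcnj13 (-0.31 ± 0.10, 0.0307) and Cldn2 (-0.26 ± 0.08, 0.0202) were lower in CAC. So 4 of 10 members passed against Con, with 20.4% of all genes, and 3 of 10 against NCAC, with 16.0%. NCAC against Con had 0 of 10, with 0% of all genes. There the unadjusted p was under 0.05 for 2 members and for 428 of all tested genes.

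In that fit Clic6 passed in more comparisons than any other member. At 8 wk alone it was higher in CAC than in Con by 0.48 ± 0.12 (adjusted p = 0.00818), and Aqp1 was lower by 0.56 ± 0.19 (fitted difference -0.56, adjusted p = 0.0386), with 15.4% of all genes called. Against NCAC at 8 wk Clic6 was higher by 0.51 ± 0.12 (adjusted p = 0.0152), with 2.39% of all genes called. The Clic6 to Aqp1 ratio in the unadjusted TPM was 2.34 to 19.3 (median 3.68, n = 7) in CAC at 8 wk, 1.59 to 2.41 (median 1.84, n = 5) in Con and 1.29 to 4.87 (median 1.60, n = 5) in NCAC. The CAC values at 8 wk overlapped both other groups. At 2, 4 and 6 wk the median ratio was 2.01, 7.35 and 3.35 in CAC, 1.75, 2.61 and 3.6 in Con, and 2.42, 3.15 and 2.26 in NCAC. This ratio is not adjusted for the level of all members, with which it differed. Clic6 against Con passed in each of 15 other settings at 8 wk (0.40 to 0.54) and over the 4 times (0.20 to 0.39), and without any 1 library. Kcne2 against Con over the 4 times also passed in each of the 15 (-1.45 to -0.69) and without any 1 library. Every setting took its covariate from genes chosen once in these same libraries to follow the members. The settings are therefore not independent support, and the limma p-values of this fit take no account of that choice. The Aqp1 call was lost without any of 9 of 12 libraries, without the filter, with median-of-ratios scaling (adjusted p = 0.0618) and with a replicate block (0.104). The Clic6 call against NCAC at 8 wk was lost with a replicate block (0.41, adjusted p = 0.143), without the 4 libraries of low Ttr, and without CAC replicate 6 (adjusted p = 0.0709) or NCAC replicate 5. Kcnj13 and Cldn2 against Con were lost when the covariate was only Tmem72, F5, Sostdc1 and Enpp2 (-0.22, adjusted p = 0.148, and -0.16, adjusted p = 0.084). Kcnj13 was also lost there with a squared term of the covariate, and against NCAC with voom (adjusted p = 0.0716), with the covariate of 4 genes (0.069) and without any of 5 of 40 libraries. Cldn2 against NCAC was lost with voom (0.0503).

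**Figure D5:**
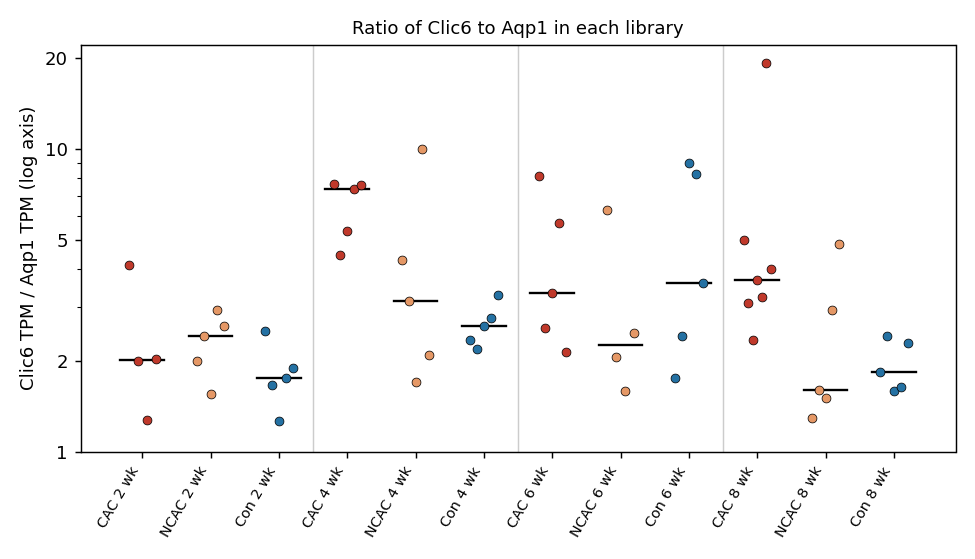
The ratio of Clic6 to Aqp1 TPM in each library on a log axis, by group, with bars at group medians. At 8 wk the CAC median (3.68) is above those of Con (1.84) and NCAC (1.60), the ranges overlap, and CAC 8 wk replicate 6, the library with the lowest mean over the members, has 19.3.

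Of the other choroid plexus genes in the lists, 27 tested genes were outside the covariate. Over the 4 times against Con at equal content, 4 of these 27 were higher in CAC and 0 lower, a share under that of all genes (20.4%). They included Cp (ceruloplasmin, a copper-binding oxidase), higher by 0.32 ± 0.10 (adjusted p = 0.0231), Abcb1a (the efflux pump P-glycoprotein), by 0.13 ± 0.05 (0.0346), and Slc15a2 (a peptide transporter), by 0.12 ± 0.04 (0.0242). Cp, Abcb1a and Slc15a2 also passed without the covariate, and other cells of the brain or its vessels express them too. Fitting the mean of the 25 genes of the covariate makes their differences balance around 0, yet single ones passed in both directions. Over the 4 times against Con, Ace (0.53 ± 0.09, limma adjusted p = 4.5e-05) and Abca4 (0.22 ± 0.06, 0.00747) were higher in CAC. Sostdc1 (-0.34 ± 0.09, 0.00700) and Msx1 (-0.28 ± 0.07, 0.00577) were lower. At 8 wk Ace was higher by 0.80 ± 0.16 (0.00146), more than Clic6 (0.48). A member's difference in this fit is therefore relative to a mixed reference.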

How the data were processed

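Hippocampal RNA was measured in 60 libraries of 12 groups. Per the labels' protocols, RNA came from Trizol, libraries from the TruSeq stranded mRNA kit, and reads from a NovaSeq sequencer. The authors deposited 1 table of TPM, scaled by gene length and library total; the submitters' processing notes name mm10. Aligner, counter and annotation release were not given in the sources used here. Since TPM is relative, it shifts all genes when a few abundant ones change, and under median-of-ratios scaling size factors ran from 0.935 to 1.08.

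Whole reads were recovered for 24222 of 24227 genes (99.98%, within 0.02 of a read), and the count alternative was voom on these. The test was limma 3.58.1 (R 4.3.3) on log2(TPM + 0.5) with a variance trend, with means of 12 groups over 60 libraries and Benjamini-Hochberg adjustment over 15608 genes at 0.05. This scale understates changes of low genes. Fits were tested on simulated data. Permutations and correlations used numpy and scipy. No 2 libraries held identical values.

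The members, lists, comparisons and covariate fit were chosen with earlier results of these data known. Named genes were the 10 members, the 15 most alike by within-group r, and up to 4 of each list with the smallest p; predicted genes were not named unless listed. C1qtnf5, the genes next to Ttr, Rps26-ps1, Gm6563, Foxj1, Mia, Plvap, Esm1, Dpep1, Atp1b1 and Trf were named after their values were seen. A gene of the transport list is not reported here by name.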

Additional observations from a re-analysis of the deposited data

Results flagged for a closer look

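Of 132 sets of values (each member, and the mean over them, in each group), 12 held a library far from the others of its group, set by its gap to the nearest relative to the group's range. Chance marks about 1 set in 20, and the members are not independent.

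Most of these were in CAC at 8 wk, where replicate 6 was low. It had 101.3 TPM of Ttr (the other 6 had 1976 to 5475), 0.9 of Folr1 (13.4 to 47.3), 0.429 of Aqp1 (7.35 to 20.6), 0.74 of Kcnj13 (19.1 to 59.1), 0.367 of Cldn2 (6.24 to 19.2) and 0.275 of Slc4a5 (6.81 to 18.8). Its mean log2 level over the members was 1.32 (4.10 to 5.39 in the others).

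In CAC at 4 wk replicate 4 was high. It had 1554 TPM of Ttr (167.3 to 287.9 in the other 4), 4.48 of Cldn2 (0.843 to 1.39) and 7.23 of Slc4a5 (0.459 to 0.745), and a mean log2 level of 3.84 (1.58 to 2.23). Con 8 wk replicate 2 was low for Cldn2, at 1.34 TPM (10.8 to 19.7).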

How the results depend on the processing

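With group means only, 479 of 485 recomputed counts of members past the threshold stayed at 0, and the median member difference moved by less than 1 SD between libraries (1.36 log2) in each of 468. That SD is wide, and the median changed sign in 18 of these, over 6 comparisons: without 1 library it ran from -1.0 to 0.49 (CAC against Con at 2 wk), -0.81 to 0.29 (8 wk), -0.34 to 0.90 (CAC against NCAC at 2 wk), -0.96 to 0.55 (6 wk), -0.28 to 0.08 (NCAC against Con over 4 times) and -0.64 to 0.69 (the change from 2 to 8 wk). With library weights it was 0.16 (CAC against Con at 2 wk) and -0.63 (that change), and -0.01 with median-of-ratios scaling (CAC against NCAC at 6 wk). For CAC against Con at 4 wk the count was 5 with only the groups compared (37 of all genes), 4 with library weights (793 of all genes) and 0 to 0 without 1 library. Over the 4 times it was 1 with a pseudocount of 0.1, 1 with only the groups compared, 1 without the 4 libraries of low Ttr and 0 to 1 without 1 library (1 without Con 8 wk replicate 2), in each case Kcne2. The cause was not tested.

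At equal choroid content, the count in CAC against Con at 8 wk was 1 without a filter, 1 with median-of-ratios scaling, 1 with the replicate block, 4 with library weights and 1 to 3 without 1 library. Against NCAC at 8 wk it was 0 with the replicate block, 2 with library weights, 0 without the 4 libraries of low Ttr and 0 to 2 without 1 library. Over the 4 times against NCAC it was 1 with voom and 2 to 4 without 1 library.

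Ttr differences, past the threshold only for CAC against Con at 4 wk with only the groups compared, changed sign in 18 of 468 settings. Without 1 library they ran from -1.71 to 0.48 (CAC against Con at 2 wk), -0.90 to 0.41 (8 wk) and -0.81 to 1.38 (the change from 2 to 8 wk); from -0.48 to 1.97 (CAC against NCAC at 6 wk), -0.43 to 1.83 (8 wk) and -0.14 to 0.58 (4 times); and from -1.26 to 1.19 (NCAC against Con at 6 wk) and -2.16 to 0.10 (8 wk). Without the 4 libraries of low Ttr they were 0.43 (NCAC against Con at 6 wk), 0.10 (8 wk), -0.43 (CAC against NCAC at 8 wk) and -0.27 (4 times), and the median r of the pairs with Ttr was 0.92 in place of 0.73. With library weights the change from 2 to 8 wk was -0.64.

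Equal replicate numbers are not said to pair libraries: same-numbered libraries had correlations of their deviations from -0.28 to 0.35 over the 12 comparisons. With a replicate block the Ttr difference of CAC against Con at 8 wk was 0.60, the median member difference 0.38, and the count of members past the threshold stayed at 0 in every comparison of group means. Kcne2, at 0 to 11 reads in the lowest libraries, is limited by depth.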
